A study of Mus musculus with 10 samples.

Results

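The 6 Dlx genes (Dlx1 to Dlx6) and the Msx genes Msx1 and Msx2 of the mouse were examined for the Polycomb proteins Suz12 and Pcl3 and for the histone mark H3K27me3 in embryonic stem cells (ESCs). These 8 genes, of 22380 protein-coding genes in the GENCODE vM1 annotation of mm9, were chosen by name as members of a homeobox family. The rule used no measured value, but earlier results of these data were known when the genes were chosen. Each gene was given a window of its gene body plus 5 kb on each side, and every deposited ChIP-seq site that shared at least 1 bp with a window was taken. The windows fall into 5 loci, because Dlx1 and Dlx2, Dlx3 and Dlx4, and Dlx5 and Dlx6 lie in pairs whose 3' ends face each other. They held 28 of the 8876 Suz12 sites, 21 of the 5722 Suz12-depleted sites, 19 of the 5242 Pcl3 sites and 5 of the 678 H3K27me3-depleted sites.

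ChIP-seq maps where a protein or a histone mark lies on DNA. The series has 6 ChIP and 4 input DNA libraries. Suz12-TAP was precipitated with the FlagM2 antibody, and H3K27me3 with an antibody to the mark, from ESCs derived from the gene trap line XG122 with the genotype Suz12 Suz12TAP/+ that carried either Pcl3 shRNA or scramble shRNA. All 4 of these libraries therefore share the tagged Suz12 allele, which is expressed from its own locus beside an untagged one. The paper reports moderately higher Suz12 mRNA and protein in cells with this allele than in wild type. It found weaker Suz12 sites that were not known before. It leaves open whether these are weak binding or an artifact of the higher Suz12 level. Pcl3-TAP was precipitated with the same FlagM2 antibody from E14 ESCs that expressed Pcl3-TAP together with a wild-type-Pcl3 shRNA, numbered 6 or 7. The Pcl3 sites thus come from another cell line than the Suz12 sites. There is 1 list of Pcl3 sites for the 2 Pcl3-TAP libraries, and whether these were pooled is not stated. Each other condition had 1 library, so no difference at these genes has a replicate check, and no test was made. The series holds no RNA libraries, so the ESC identity of these cells was not checked by expression here. The paper measured RNA apart from this series. It reports lower Pou5f1 (Oct4) and Nanog levels in Pcl3 knockdown ESCs, and more cells with a differentiated shape. Whether such cells have a part in the calls at these genes was not tested.

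The deposited lists give a position and a p-value for every site. The p-value of a Suz12 or Pcl3 site is that of binding, and the p-value of an H3K27me3-depleted site is that of the lower signal in Pcl3 shRNA cells than in scramble cells. The smallest values were rounded to 0 in the lists. A Suz12-depleted site is a Suz12 site with lower signal in Pcl3 shRNA cells. Each of the 5722 has the position and p-value of its binding site, so this list says which sites had less Suz12 but not by how much. The paper reports lower Suz12 mRNA and protein in Pcl3 shRNA cells, and proposes that this may explain part of the reduced binding. By immunoblot it also found less H3K27me3 in these cells as a whole. The part of such general changes in the calls at single genes was not tested. Read depth is not in the lists, and a gene without a site is one at which none was called at this depth.

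Polycomb repressive complex 2 (PRC2) places methyl groups on lysine 27 of histone H3. Suz12 is one of its core subunits, Pcl3 (also called Phf19) is an accessory subunit, and H3K27me3 is the trimethylated mark that PRC2 leaves on silent developmental genes. Dlx and Msx genes belong to the NK-like homeobox class and encode transcription factors of the embryo. Dlx1 and Dlx2 act in the differentiation of forebrain interneurons, Dlx5 and Dlx6 in the lower jaw, inner ear and limb, Dlx3 in skin, hair, teeth and placenta, and Msx1 and Msx2 in the growth of teeth, skull and limb buds downstream of BMP signals. Dlx4, the partner of Dlx3, is less well characterized.

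The promoters of these genes are shown first, because the start of every one of them lay in a Suz12 site with lower signal on Pcl3 knockdown. For the strongest promoter site of each locus, or the wider where p-values were tied as at Dlx1 and Dlx2 and at Dlx5 and Dlx6, the 250 bases just before the annotated gene start are given, 5' to 3' on the strand of the gene in mm9, with each CpG in capitals. None of them holds an annotated UTR base. The Suz12 site over the start reached 107 bp upstream at Msx2, so it holds only part of that stretch, and over 250 bp upstream at the other 4 genes.
Dlx2 (chr2:71384812-71385061, minus strand): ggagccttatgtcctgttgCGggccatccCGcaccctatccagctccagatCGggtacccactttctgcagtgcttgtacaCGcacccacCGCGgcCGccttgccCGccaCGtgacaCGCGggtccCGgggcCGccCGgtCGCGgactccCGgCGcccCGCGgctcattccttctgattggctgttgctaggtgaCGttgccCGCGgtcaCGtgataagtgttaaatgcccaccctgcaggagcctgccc
Dlx3 (chr11:94981153-94981402, plus strand): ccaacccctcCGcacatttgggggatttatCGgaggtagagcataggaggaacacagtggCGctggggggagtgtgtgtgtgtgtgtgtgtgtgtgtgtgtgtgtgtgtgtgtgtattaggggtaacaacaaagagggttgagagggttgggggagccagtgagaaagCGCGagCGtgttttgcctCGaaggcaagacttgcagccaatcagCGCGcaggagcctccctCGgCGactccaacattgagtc
Dlx5 (chr6:6832086-6832335, minus strand): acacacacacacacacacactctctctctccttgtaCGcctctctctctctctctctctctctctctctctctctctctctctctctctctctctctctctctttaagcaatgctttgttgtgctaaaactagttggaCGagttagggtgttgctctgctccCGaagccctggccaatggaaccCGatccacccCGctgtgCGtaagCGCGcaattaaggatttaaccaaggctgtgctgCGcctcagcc
Msx1 (chr5:38215823-38216072, minus strand): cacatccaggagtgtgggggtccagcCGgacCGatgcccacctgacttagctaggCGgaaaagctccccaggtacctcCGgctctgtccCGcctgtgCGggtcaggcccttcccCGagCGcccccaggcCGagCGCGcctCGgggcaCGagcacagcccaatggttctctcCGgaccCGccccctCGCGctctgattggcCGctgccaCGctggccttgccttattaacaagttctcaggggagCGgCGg
Msx2 (chr13:53568444-53568693, minus strand): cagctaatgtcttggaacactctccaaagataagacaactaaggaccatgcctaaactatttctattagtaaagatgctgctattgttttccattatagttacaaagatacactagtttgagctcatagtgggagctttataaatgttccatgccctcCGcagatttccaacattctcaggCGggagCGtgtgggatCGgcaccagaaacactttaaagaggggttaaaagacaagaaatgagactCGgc
The CpG count of these stretches was 24 for Dlx2, 21 for Msx1, 11 for Dlx3, 9 for Dlx5 and 5 for Msx2. In the same window Dlx4 had 7, and Dlx1 and Dlx6 had 3 each. The median of the 8 was 8 CpG, and that of the 22375 protein-coding gene starts with a complete window was also 8 (quartiles 3 and 18). GCGCGC, which reads the same on both strands, occurred once each before Dlx3, Dlx5 and Msx1, that is at 3 of 8 genes, and before 13.2% of all gene starts. The stretches right before the starts of the Dlx and Msx genes thus differed widely in CpG content among themselves, from AT-rich before Msx2 (41.6% G and C) to 68.4% G and C before Msx1.

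All 8 genes had Suz12, Suz12-depleted and Pcl3 sites in their windows. Among all protein-coding genes 28.8%, 20.6% and 14.7% had one. The start of each of the 8 genes lay inside a Suz12 site (18.2% of all genes). Each of these 8 start sites was in the depleted list, as was the site of 77.8% of the 4078 gene starts that lay in a Suz12 site. All 8 start sites were in groups 9 and 10 of 10 groups by site strength, with 10 the strongest. In these groups 99.9% and 100.0% of all Suz12 sites were depleted, so strong sites anywhere shared this feature. An H3K27me3-depleted site was present at 3 of the 8, Dlx3, Dlx4 and Msx2 (3.13% of all genes, and 10.5% of the genes with a Suz12 site). With p-values limited to 1e-10 or smaller it was 1 of 8, Dlx4. The share of all genes at that limit was not counted, so the 2 cannot be compared. A total of 6 of the 8 windows held a Suz12 site with a p-value written as 0 (2.09% of all genes), and the exceptions were Dlx4 and Msx2.

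**Figure D1:**
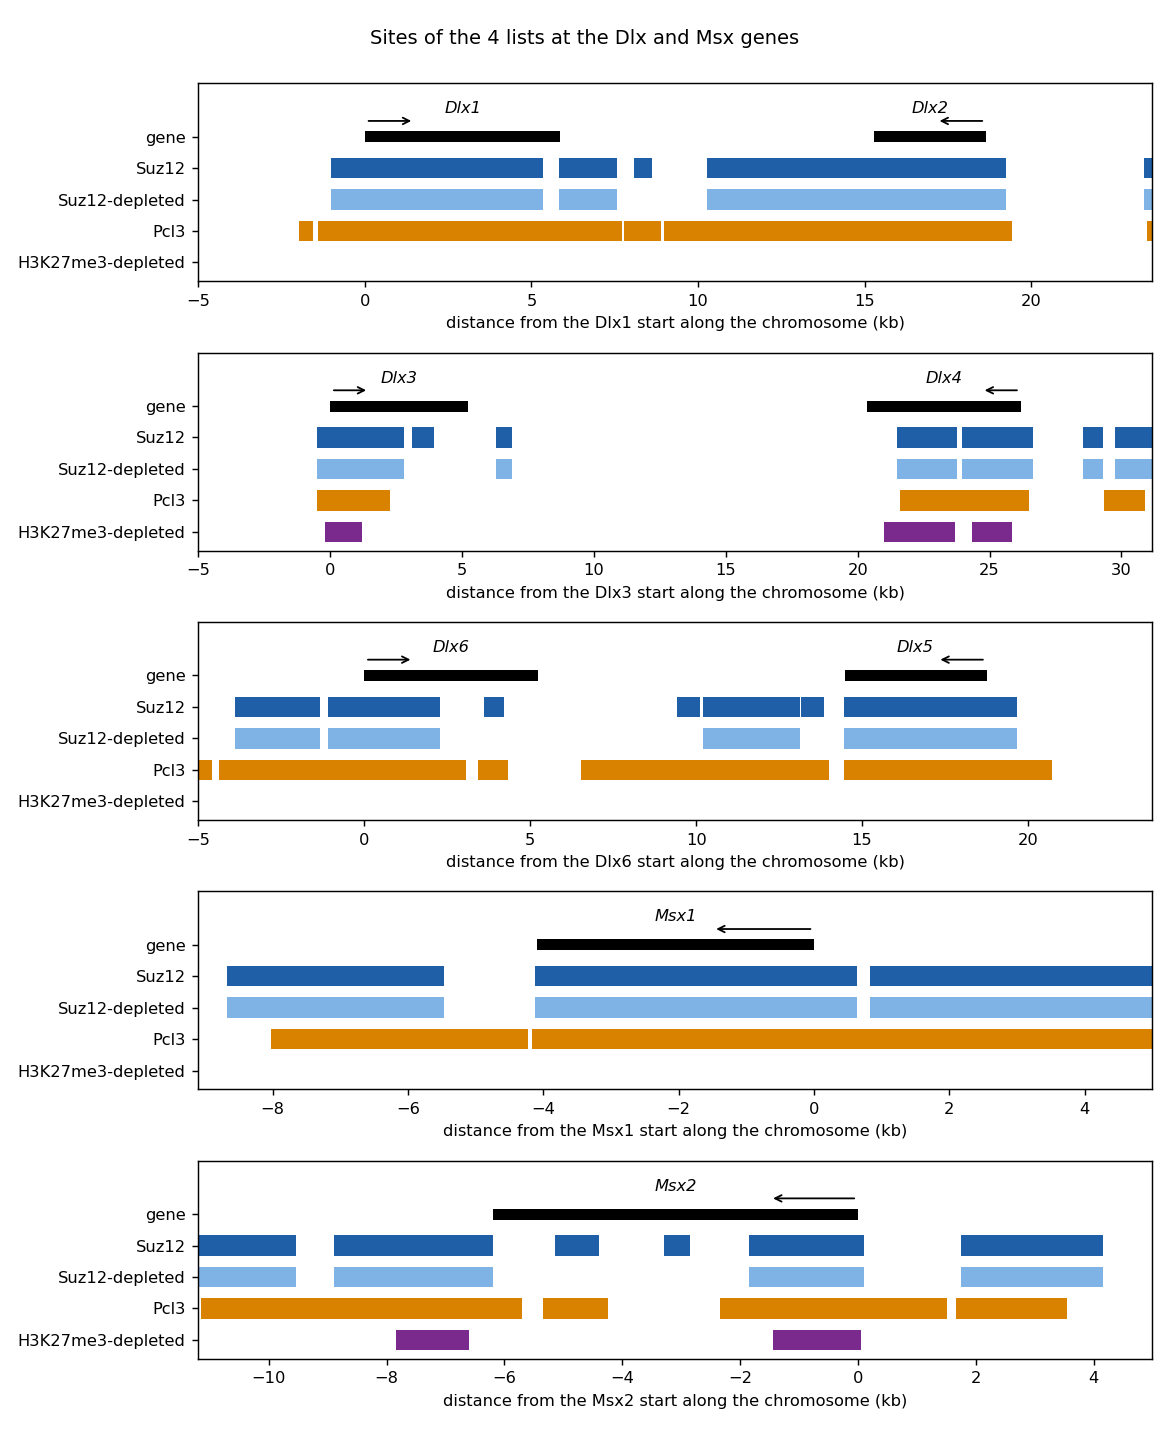
Sites of the 4 lists at the 5 loci, with the distance along the chromosome from one gene start in kb on the x axis, 1 row per list, black bars for gene bodies and arrows for the direction of transcription. Suz12 and Pcl3 bars lie over all 8 gene starts, and H3K27me3-depleted bars appear at Dlx3, Dlx4 and Msx2 alone.

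Dlx1 (chr2:71366170-71372038, plus strand) and Dlx2 (chr2:71381466-71384811, minus strand) had 5 Suz12 sites. A site of 6350 bp ran from 1019 bp before the Dlx1 start to 5330 bp into the gene, and a site of 8950 bp, the widest at any of the 8 genes, ran from 589 bp before the Dlx2 start through the whole gene and on into the space between the pair. Both had p-values written as 0 and both were depleted. The space between the pair held a further depleted site of 1750 bp (2.96e-78) and a site of 550 bp (3.87e-10) that was not depleted. The fifth site, 900 bp wide, lay upstream of Dlx2 and was depleted (2.71e-21). Pcl3 sites of 9150 and 10450 bp, both with p-values written as 0, lay over the same starts. Together with another site of 1100 bp between them (6.16e-33), Pcl3 filled 98.4% of the 9427 bp that separate the genes, and the Suz12 sites 77.2%. No H3K27me3-depleted site lay closer than 1942220 bp to the Dlx1 start.

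Dlx5 (chr6:6827805-6832085, minus strand) and Dlx6 (chr6:6813334-6818568, plus strand) had 7 Suz12 sites. The start sites were 5200 bp wide at Dlx5 and 3350 bp at Dlx6, both with p-values written as 0 and both depleted. The other depleted sites were one of 2550 bp width upstream of Dlx6 (3.03e-209) and one of 2900 bp width in the space between the genes (3.66e-210). The remaining 3 sites, of 600, 700 and 700 bp with p-values of 2.09e-10, 6.02e-12 and 1.43e-14, were not depleted. One of them lay in the Dlx6 gene and the others flanked the strong site between the genes within 1 kb. A single Pcl3 site of 7500 bp covered all 3 Suz12 sites between the genes, the depleted one and its undepleted neighbours alike. The Pcl3 site over the start reached farther upstream than the Suz12 start site, 4383 bp against 1083 bp at Dlx6 and 1965 bp against 915 bp at Dlx5. At Dlx6 the same Pcl3 site also covered the separate upstream Suz12 site, which lay at -3883 to -1334 bp from the start. The nearest H3K27me3-depleted site was 2114634 bp from the Dlx6 start.

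Msx1 (chr5:38211724-38215822, minus strand) had the most continuous occupation. Its 3 Suz12 sites, of 3200 bp (6.51e-255), 4750 bp and 4250 bp (both written as 0), were all depleted and covered 86.0% of the window. Only 10 of the 6442 genes with a Suz12 site had a larger share of their window covered. A Pcl3 site of 9300 bp joined the start site and the upstream Suz12 site. The nearest H3K27me3-depleted site was 494729 bp away.

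Dlx3 (chr11:94981403-94986610, plus strand) and Dlx4 (chr11:95001770-95007577, minus strand) had 7 Suz12 sites, with little in the space between the genes. The Dlx3 start lay in a depleted site of 3300 bp with a p-value written as 0, and the Dlx4 start in a depleted site of 2700 bp (1.61e-219), with another of 2250 bp in the Dlx4 gene (1.99e-130). Of the 15159 bp between the pair, Suz12 sites covered 3.96% and Pcl3 sites none. This differed from the 77.2% and 98.4% between Dlx1 and Dlx2, and from the 46.6% and 81.2% between Dlx5 and Dlx6. Pcl3 sites of 2750 bp (1.34e-159) at Dlx3 and 4900 bp (3.69e-141) at Dlx4 lay over the starts. Dlx3 also held the strongest site of the 8 genes that was not depleted, 850 bp over exons and an intron (1.73e-18), while a weaker site of 600 bp downstream of the gene (9.79e-12) was depleted.

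Msx2 (chr13:53562250-53568443, minus strand) had 6 Suz12 sites, and none had a p-value written as 0. The start site was the narrowest of the 8 start sites (1950 bp, 2.97e-137). The strongest site lay at the 3' end of the gene (2700 bp, 2.58e-163), and the others in the depleted list had p-values of 1.26e-87 and 3.16e-82. Inside the gene, sites of 750 bp (6.16e-14) and 450 bp (1.74e-08) were not depleted. The 450 bp site, wholly in an intron, was the weakest and narrowest of the 28. The widest Pcl3 site at Msx2 was at the 3' end (5450 bp, p-value written as 0) and not at the start (3850 bp, 5.74e-146).

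Across the 28 Suz12 sites, widths ran from 450 to 8950 bp with a median of 2100 bp, against 1100 bp for all Suz12 sites. The p-value was written as 0 at 7 of the 28, or 25.0%, and at 4.9% of all Suz12 sites. In total 21 of the 28, or 75.0%, were in the depleted list, beside 64.5% of all Suz12 sites. The share of depleted sites rose with site strength in the whole list, from 2.37% in the weakest of 10 strength groups to 100.0% in the strongest, and the sites at these genes were divided by strength as well. The 21 depleted sites had p-values of 9.79e-12 or smaller and a median width of 2700 bp. The 7 others had p-values between 1.74e-08 and 1.73e-18, were 450 to 850 bp wide and covered no gene start.

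**Figure D2:**
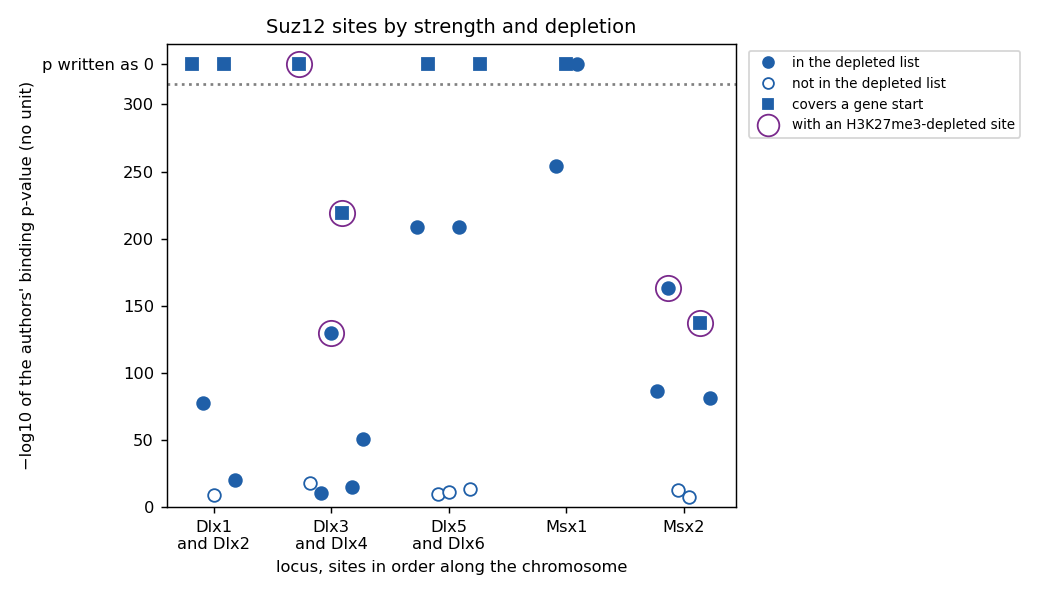
Each of the 28 Suz12 sites by locus, with −log10 of the deposited binding p-value on the y axis and p-values written as 0 on the top line. Filled symbols are in the depleted list, squares cover a gene start and rings mark sites that share bases with an H3K27me3-depleted site. Open symbols all lie at the bottom of the plot, below 18.

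Weak sites were therefore compared with weak sites. At p-values of 1e-18 or larger, a limit chosen after these values were seen, 9 of the 28 sites remained. Of these, 2, or 22.2%, were depleted, beside 21.1% of the 3428 such sites in the whole list. Both lay at the Dlx3 and Dlx4 locus, one downstream of Dlx3 and one upstream of Dlx4 (1.72e-15), and neither shared bases with a Pcl3 site. A Pcl3 site was present at 5 of the 9, or 55.6%, against 13.5% of all weak sites. None of these 5 was depleted, and among the 462 weak sites with Pcl3 in the whole list 23.8% were.

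CpG density also differed between the depleted sites and the others at these genes. The depleted sites held 2.00 to 5.08 CpG per 100 bp with a median of 3.72, and the sites outside the depleted list 1.14 to 2.47 with a median of 1.67. The ranges overlapped at the low end through sites of 2.00 and 2.11, upstream of Dlx4 and between Dlx1 and Dlx2. The 8 start sites were the richest group, at 4.12 to 5.08. Over all Suz12 sites the medians were close, 5.45 for depleted sites and 5.27 for the rest, a smaller difference than at the Dlx and Msx genes. Over whole sites the median of the 28 was 3.45, against 5.41 for all Suz12 sites, and the highest value here was 5.08. The central 500 bp of each site, added after the data were seen, gave every site the same length. Width still affects which bases are counted, since the center of a wide site can lie away from the gene start. Counted so, the median was 3.30 (1.40 to 9.60) at these genes and 7.00 in the whole list. On that scale the depleted sites here had a median of 4.40 and the others 2.00, and those of the whole list 7.60 and 5.80. CpG density here goes together with strength, width and distance from a gene start, and their parts were not tested.

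**Figure D3:**
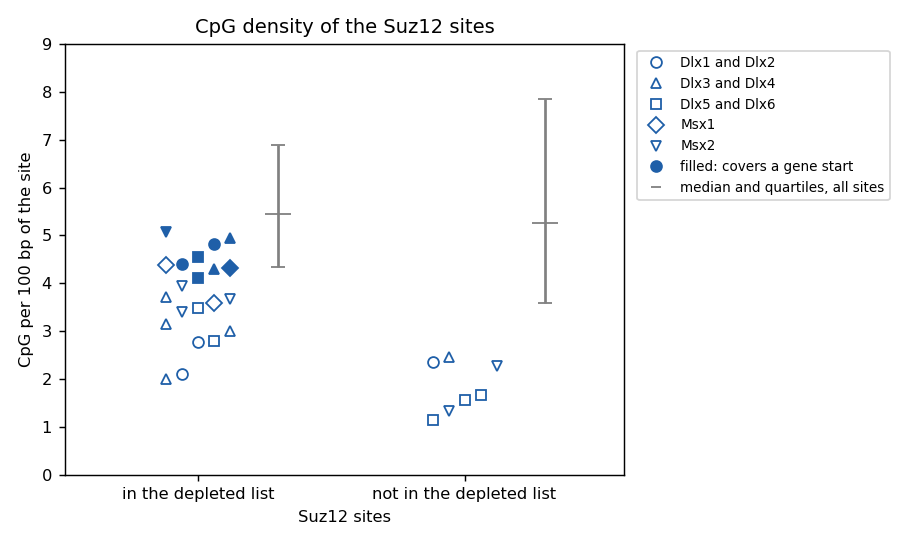
CpG per 100 bp of each of the 28 Suz12 sites, split by membership in the depleted list, with the locus as symbol and filled symbols for sites over a gene start. Grey bars give the median and quartiles of all Suz12 sites, 5.45 for depleted sites and 5.27 for the others, above most of the Dlx and Msx sites.

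As an example of a site that was not depleted, the central 250 bases of the strongest site that was outside the depleted list and wholly outside genes are given, from the space between Dlx5 and Dlx6 (1.43e-14), with each CpG in capitals. The stretch has 3 CpG and 45.6% G and C, and lies within a Pcl3 site. The stretches before the Dlx1 and Dlx6 starts, in depleted sites with p-values written as 0, also had 3 CpG each, with 44.0% and 45.2% G and C.
Dlx5 and Dlx6, site outside the depleted list (chr6:6826725-6826974, plus strand): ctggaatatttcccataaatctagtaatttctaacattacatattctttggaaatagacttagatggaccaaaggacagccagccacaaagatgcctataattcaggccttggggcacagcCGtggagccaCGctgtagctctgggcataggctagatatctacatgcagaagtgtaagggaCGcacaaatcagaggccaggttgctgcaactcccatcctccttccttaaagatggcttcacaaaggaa

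Pcl3 sites shared bases with 24 of the 28 Suz12 sites, or 85.7%, beside 44.3% of all Suz12 sites. In the whole list this share also rose with Suz12 strength, from 10.3% in the weakest of the 10 strength groups to 99.7% in the strongest. The 2 shares are therefore not matched for strength. The 4 Suz12 sites without Pcl3 were at Dlx3, on both sides of the 3' end of the gene, upstream of Dlx4 and in the Msx2 intron. Of the 19 Pcl3 sites, 2 shared no base with a Suz12 site, both of them upstream of the Dlx1 and Dlx6 starts, and 6 joined 2 or more Suz12 sites (4.01% of all Pcl3 sites did). The median Pcl3 width was 3800 bp (400 to 10450 bp), against 850 bp for all Pcl3 sites. Pcl3 sites covered more of the window than Suz12 sites at 6 of the 8 genes, and this was so at 17.2% of the 3074 genes with both kinds of site. The excess was 5267 bp at Dlx6, 3300 bp at Dlx1, 2399 bp at Msx2, 1350 bp at Dlx5, 850 bp at Msx1 and 100 bp at Dlx2. At Dlx3 and Dlx4 Pcl3 covered less than Suz12, with a difference of -2000 and -677 bp. The lists come from different cell lines and libraries, so their widths also differ with depth and with the amount of tagged protein, which cannot be told apart here.

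**Figure D4:**
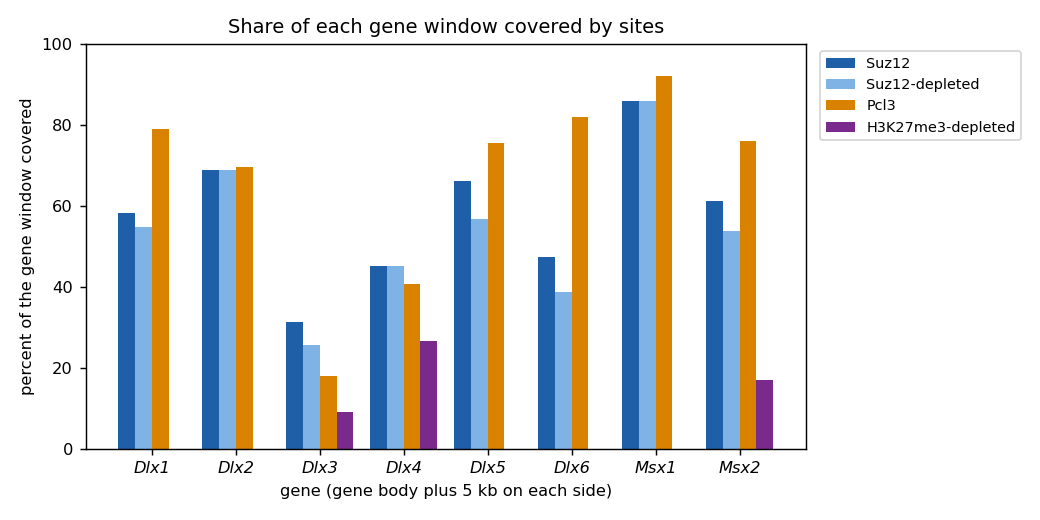
Percent of each gene window (gene body plus 5 kb on each side) covered by the sites of each list. Suz12 covers 31.2% at Dlx3 to 86.0% at Msx1, Pcl3 18.1% to 92.0% at the same genes, and H3K27me3-depleted sites 9.21% at Dlx3, 26.6% at Dlx4 and 17.0% at Msx2.

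H3K27me3 was called as lower in Pcl3 shRNA cells at 5 places, all of them on Suz12-depleted sites. At Dlx3 a site of 1400 bp covered the gene start (1.79e-08). At Dlx4 a site of 2700 bp lay in the 3' part of the gene (1.53e-17, rank 29 of the 678 sites) and another of 1500 bp began 327 bp inside the gene (5.26e-10). At Msx2 a site of 1500 bp covered the start (2.35e-09) and one of 1250 bp lay past the 3' end (4.76e-08). Of these, 4 were wholly inside Suz12 sites and wholly inside Pcl3 sites, and the 2700 bp site at Dlx4 shared 2200 bp with Suz12 and 2100 bp with Pcl3. Thus 5 of 28 Suz12 sites, or 17.9%, shared bases with an H3K27me3-depleted site, beside 6.89% of all Suz12 sites and 22.3% of those with a p-value written as 0.

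By the share of the window that Suz12 covered, the genes with H3K27me3-depleted sites were not the most occupied ones. The Suz12 coverage of Dlx3 and Dlx4 (31.2% and 45.1%) was the lowest of the 8, and Msx2 (61.1%) was in the middle. The Suz12 start site had a p-value of 1.61e-219 at Dlx4 and 2.97e-137 at Msx2. At Dlx3 it was written as 0, as at the genes without an H3K27me3-depleted site. Dlx3 and Dlx4 share a locus and are not separate cases. At the starts of these 3 genes the Pcl3 p-values were 1.34e-159, 3.69e-141 and 5.74e-146, while at the starts of Dlx1, Dlx2, Dlx5, Dlx6 and Msx1, which had no H3K27me3-depleted site, they were written as 0. This holds for the start sites alone, since the H3K27me3-depleted site past the 3' end of Msx2 lay in a Pcl3 site with a p-value written as 0. The whole list ran the other way. Of the Pcl3 sites over a gene start, 29.2% of the 161 with a p-value written as 0 shared bases with an H3K27me3-depleted site, and 13.6% of the 221 with a p-value above 0 and at most 1e-100. Over all Pcl3 sites, of the 208 Pcl3 sites with a p-value written as 0, 27.9% did so, and of the 401 in the weaker range, 14.7%. This split was chosen after the values were seen.

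Dlx3 and Dlx4 lie on chromosome 11. There 17.7% of Suz12 sites shared bases with an H3K27me3-depleted site, against 5.64% on all other chromosomes. Counted by genes with a Suz12 site, 28.4% had one on chromosome 11 and 8.51% elsewhere. Whether the chromosome has a part in the calls at Dlx3 and Dlx4 was not tested. Among the 6 genes on other chromosomes, Msx2 alone had H3K27me3-depleted sites.

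The neighbours are given beside all protein-coding genes. Of those, 28.8% had a Suz12 site, 20.6% a Suz12-depleted, 14.7% a Pcl3 and 3.13% an H3K27me3-depleted site. Of the 10 nearest protein-coding genes on either side of the loci, Gm1631, Shfm1, Acn9, Cytl1, Sptlc1 and Gm5449 had no site of any list in their windows. Itga3 had 1 Suz12 site, 1 Suz12-depleted site and 1 Pcl3 site, and Tac4 and Stx18 had 1 Suz12 site each, in the depleted list, and no Pcl3 site. Metap1d, 2919 bp from Dlx1, had 2 Suz12 and 2 Pcl3 sites, and its window reaches into that of Dlx1. None of the 10 had an H3K27me3-depleted site. The space between the neighbours of Dlx3 and Dlx4 held 13 Suz12 sites in all, against the 7 at the genes, and 4 H3K27me3-depleted sites, against the 3 at the genes.

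Related genes were counted in lists chosen with earlier results of these data known. Of 40 other NK-like homeobox genes, 38 had a Suz12 site, 38 a Suz12-depleted site, 37 a Pcl3 site and 11 an H3K27me3-depleted site, close to the shares of the Dlx and Msx genes. The exceptions without any Suz12 site were Noto, a notochord gene, and Nanog, a pluripotency gene that ESCs express. The p-value was written as 0 at 30 of the 40, and among these the widest sites were those of Hmx1, Nkx2-2 and Lbx1, at 14350, 12200 and 9400 bp. Msx3, the third Msx gene, had 1 Suz12 site of 2900 bp with a p-value written as 0, in the depleted list, and an H3K27me3-depleted site (4.07e-08), the latter a feature of Msx2 and not of Msx1. Pcl3 covered more of the window than Suz12 at 20 of the 37 NK-like genes with both kinds of site, beside 6 of 8 here.

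Of 17 signals and factors known to act upstream of Dlx or Msx genes, 16 had a Suz12 site, 14 a Suz12-depleted site, 14 a Pcl3 site and 2 (Pax7 and Gsx1) an H3K27me3-depleted site. The p-value was written as 0 at 10 of the 17, with the widest sites at Pax7, Tfap2a (listed as Tcfap2a) and Shh, and the one without a Suz12 site was Trp63, a regulator of skin. The median Suz12 coverage of their windows was 19.2%, beside 59.7% for the Dlx and Msx genes. The BMP ligand genes Bmp2, Bmp4 and Bmp7, whose signals turn on Msx genes, each had at least 1 depleted Suz12 site and a Pcl3 site. At Bmp4 only 1 of 3 Suz12 sites was in the depleted list, and at Bmp7 2 of 4. Edn1 and Ednra of the same list had 1 Suz12 site each, but no Suz12-depleted site and no Pcl3 site. Of 11 genes known to act downstream of Dlx genes, all 11 had a Suz12 and a Suz12-depleted site, 10 a Pcl3 site and 1 (Gsc, a head and jaw regulator) an H3K27me3-depleted site. Runx2 and Hand2, regulators of bone and of the jaw, were among the 8 with a p-value written as 0. Their median Suz12 coverage was 14.3%. Of 8 ESC marker genes, 2 (Esrrb and Klf4) had a Suz12 site, both with one in the depleted list, 2 (Esrrb and Sox2) a Pcl3 site and none an H3K27me3-depleted site. Pou5f1, Nanog, Zfp42, Tdgf1 and Dppa5a had no site of any list.

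**Figure D5:**
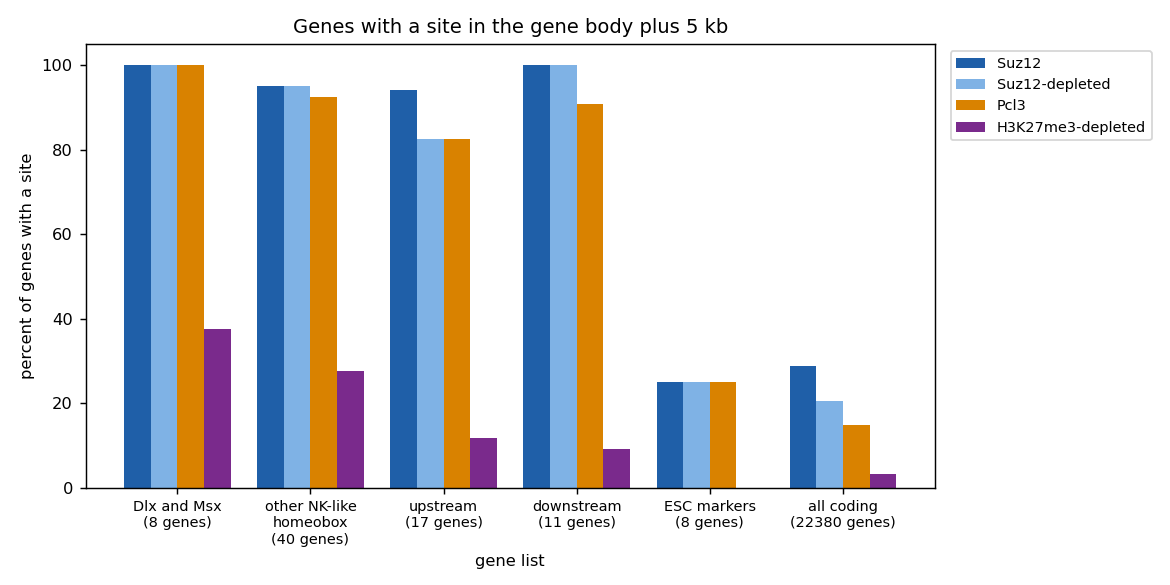
Percent of the genes of each list with a site of each kind in the gene body plus 5 kb, with the number of genes under each group. The 8 Dlx and Msx genes are at 100.0% for Suz12, Suz12-depleted and Pcl3 sites and at 37.5% for H3K27me3-depleted sites, and all protein-coding genes at 28.8%, 20.6%, 14.7% and 3.13%.

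The mean profile of the 8 genes, with 58.0% of the window covered by Suz12, 53.7% by Suz12-depleted, 66.6% by Pcl3 and 6.59% by H3K27me3-depleted sites, was compared with the profiles of 22371 other protein-coding genes by Euclidean distance over these 4 percentages. The nearest were Dbx1 (4.45 percentage points), Insm1 (5.84) and En2 (6.31). They are near the mean, which need not describe any single member. Pcl3 coverage of the 8 ran from 18.1% to 92.0%. Dlx1, Dlx2, Dlx5, Dlx6 and Msx1 had no H3K27me3-depleted coverage, while Dbx1, Insm1 and En2 had 7.49%, 7.64% and 5.86%. Dbx1 and En2, homeobox genes of the spinal cord and midbrain, are in the NK-like list, and Insm1 encodes a zinc-finger factor of neuroendocrine and neural progenitor cells. Dlx3 lay farthest below this mean in Suz12 and Pcl3 coverage, and Msx1 farthest above it.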

How the data were processed

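The authors aligned single-end 30-nucleotide reads to mm9 with Bowtie, kept unique alignments, scaled paired libraries to equal background, tested 400 bp windows with the Skellam distribution (p-value cutoff 1e-07) and joined significant windows. The only deposited measurement is 1 p-value per site in each of 4 lists. Unique alignment leaves out repeated sequence, and equal scaling assumes a like background in both libraries. Whether and how the 2 Pcl3-TAP libraries were combined is not given in the sources used here.

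Sites were intersected with GENCODE vM1 genes (gene body plus 5 kb, at least 1 shared bp), coverage and CpG were computed from the sites and the mm9 sequence, and positions are 1-based. Named genes were the members, the nearest coding gene on each side of a locus, Msx3, the 3 strongest genes of each list, those with an H3K27me3-depleted site or without a Suz12 site where these numbered 5 or fewer, and the 3 genes most like the members' mean. A gene that this rule names is not reported here. All other named genes were chosen after their values were seen. The members and lists were chosen with earlier results of these data known. Lists were matched by symbol or synonym, and all genes of each were found. With 1 library per condition no test was run. Overlap functions were tested on simulated data. Python 3.11.15, numpy 2.4.6, pandas 2.3.3 and matplotlib 3.10.9 were used.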

Additional observations from a re-analysis of the deposited data

How the results depend on the processing

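The 8 counts of sites and genes gave 61 values under the alternatives. In 48 of them the count stayed within 1.5 times the value reported. All 8 genes kept a Suz12, a Suz12-depleted and a Pcl3 site under each alternative tried for those counts. All lists were also limited to p-values of 1e-10 or smaller, or of 1e-12 or smaller. The genes with an H3K27me3-depleted site then fell from 3 to 1 (Dlx4), and the Suz12 sites with one from 5 to 1. The shares over all genes and all Suz12 sites were not counted at these limits. The number of Suz12 sites follows the window, and was 15 in gene bodies alone (11 depleted, 13 with Pcl3), 11 within 2 kb of a gene start (11 depleted, 11 with Pcl3, 3 with an H3K27me3-depleted site) and 16 when Suz12 sites within 1 kb were merged. With centers within 2 kb instead of shared bases, the rule of the paper, 22 of the Suz12 sites had a Pcl3 site. With centers within 500 bp, 9 had one, with the cause not tested. The shares over all Suz12 sites were not counted under these center rules, so these counts have no background. CpG density over the central 500 bp of each site, added after the data were seen, kept the direction between depleted and other sites. No paired analysis was possible because no result comes from a test and the lists carry no replicate. Limits are that each ChIP condition had 1 library, apart from Pcl3-TAP with 2, and whether those were pooled is not stated. Read depth is also not in the lists, and the size of the Suz12 loss is not known. A smaller loss, or one at a weaker site, could have gone uncalled.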

Other observations

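Long noncoding RNA genes cross Dlx1 and Dlx6 on the opposite strand, and do not reach Dlx2 or Dlx5. Dlx1as, a lincRNA of 21438 bp on the minus strand of chromosome 2 from 71354511 to 71375948, starts inside a Pcl3 site, and the nearest Suz12 site is 503 bp from its start. Its gene body shared bases with 3 Suz12 sites, of which 2 were in the depleted list, and with 4 Pcl3 sites. Dlx6os1, 49345 bp long on the minus strand of chromosome 6 from 6770189 to 6819533, starts in no site of any list, 1983 bp from the nearest Suz12 site. Its body shared bases with 4 Suz12 sites, 3 of them depleted, and 5 Pcl3 sites. Neither had an H3K27me3-depleted site. ChIP-seq sites have no strand, so sites that lie in these RNA genes and in Dlx1 or Dlx6 cannot be told apart.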
